A study of Mus musculus with 7 samples.

Results

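The expression of 10 genes was followed in old and young mouse haematopoietic stem cells (HSCs): Gata1, Klf1, Epor, Zfpm1, Gfi1b, Tal1, Nfe2, Car1, Car2 and Tfrc, which are Gata1, its partner regulators and genes of early erythroid and megakaryocytic cells. They were taken by name from the deposited table, and 10 of 10 were found among its 24015 genes. Bulk RNA sequencing covered 3 libraries of old HSCs and 4 libraries of young HSCs. All cells came from bone marrow of C57BL/6 mice and were sorted for the LSK phenotype (no lineage markers, with Sca-1 and c-Kit), with CD150 and without CD48. The labels name no treatment or mutation in either group. Old and young are not given as ages, and nothing says that separate mice gave separate libraries, so the p-values measure the spread between these libraries, which may be technical.

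GATA1 is a zinc-finger transcription factor that red cells, megakaryocytes, mast cells and eosinophils need in order to mature. It binds DNA at GATA motifs, often in a complex with TAL1, LMO2 and LDB1, and many of its activities need the cofactor FOG1, the product of Zfpm1. It is low in long-term HSCs, where its relative GATA2 predominates, and it is induced as cells enter the megakaryocyte and red cell lineages. Transcripts of such lineage genes at low level in stem cells are known as lineage priming.

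The promoters of 3 of the genes are shown because Gata1 has the largest log2 fold change in size among the 10, and Klf1 and Epor are textbook targets of GATA1. Each stretch runs 5′ to 3′ on the gene's own strand, from 250 bases before to 50 bases after the start site, and was taken from RefSeq for mouse build GRCm38.p6. The letters searched for were GATA preceded by A or T and followed by A or G (a GATA hexamer) on either strand, whose matches are in capitals, and CCNCNCCC on either strand, and 0 matches of the 2 motifs overlapped. Gata1 lies on the minus strand at chrX:7967861-7968160, Klf1 on the plus strand at chr8:84901732-84902031, and Epor on the minus strand at chr9:21963527-21963826.
Gata1 promoter: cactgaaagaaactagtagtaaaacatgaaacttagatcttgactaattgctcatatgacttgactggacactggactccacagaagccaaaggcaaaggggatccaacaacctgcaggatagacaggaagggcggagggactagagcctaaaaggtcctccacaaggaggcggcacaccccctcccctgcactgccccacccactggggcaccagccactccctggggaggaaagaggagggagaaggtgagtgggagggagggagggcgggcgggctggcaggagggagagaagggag
Klf1 promoter: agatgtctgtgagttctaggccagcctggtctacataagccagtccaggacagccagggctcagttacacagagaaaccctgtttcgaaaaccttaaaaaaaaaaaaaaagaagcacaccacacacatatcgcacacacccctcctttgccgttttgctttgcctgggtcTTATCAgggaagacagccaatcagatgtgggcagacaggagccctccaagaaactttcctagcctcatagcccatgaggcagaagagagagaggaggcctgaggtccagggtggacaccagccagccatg
Epor promoter: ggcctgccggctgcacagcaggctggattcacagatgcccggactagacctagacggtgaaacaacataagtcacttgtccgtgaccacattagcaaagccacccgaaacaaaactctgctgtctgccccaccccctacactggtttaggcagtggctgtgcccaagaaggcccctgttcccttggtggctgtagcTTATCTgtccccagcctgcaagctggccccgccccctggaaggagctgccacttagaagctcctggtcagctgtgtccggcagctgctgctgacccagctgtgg
The GATA hexamer of Klf1 began at position -80 from the start site and that of Epor at position -54, and the Gata1 stretch held no GATA hexamer. Of the 10 genes, 7 had an entry in the promoter table, with 9 promoters between them, and 4 of these 9 held a GATA hexamer, against 29.8% of all 32851 promoters of 300 bases. The letters CCNCNCCC, the core recognised by KLF1 and related factors, stood in 7 of the 9, against 49.5% of all promoters. Gfi1b and Tal1 were the other genes with a GATA hexamer, and Zfpm1 and Tfrc had none in these windows. A match is a description of the letters and not evidence of binding.

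Levels are given as CPM, a gene's count scaled to a common library total, with TMM factors (edgeR) to make libraries comparable. Young 1 and young 2 stood apart from the other libraries. The first principal component of log2 CPM (library size alone) held 27.4% of the variance with young 1 at its end, and the second held 21.9% with young 2 at its end. Values without both are therefore given beside the results they change.

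No gene of the 10 passed edgeR's test across all genes. All 10 had enough reads to be tested, and edgeR's quasi-likelihood test with Benjamini-Hochberg adjustment over 11506 genes called 0 higher and 0 lower in old HSCs at an adjusted p of 0.05. Over all tested genes the same rule called 0.252% in either direction, 0.235% higher and 0.0174% lower. At an unadjusted p under 0.05 in the same edgeR test the counts were 2 higher and 1 lower, which is 3 of 10 against 9.12% of all tested genes (4.62% higher and 4.49% lower). The same 3 genes had old and young libraries that did not overlap, Car2 and Nfe2 with old higher and Gata1 with old lower, against 12.7% of all tested genes (7.55% higher and 5.18% lower). DESeq2 called 1 of the 10, Car2, against 3.81% of the genes to which it gave an adjusted p. limma-voom called 0 of the 10, against 0.435% of all genes, and edgeR on genes of at least 50 CPM called 0 of those it kept, against 2.88%. Of the 10 log2 fold changes (old over young) 5 were positive and 5 negative, with a median of -0.18, beside a median of -0.03 over all tested genes. In bulk RNA, fewer cells of a kind and less RNA per cell cannot be told apart, and this holds for every value below.

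**Figure D1:**
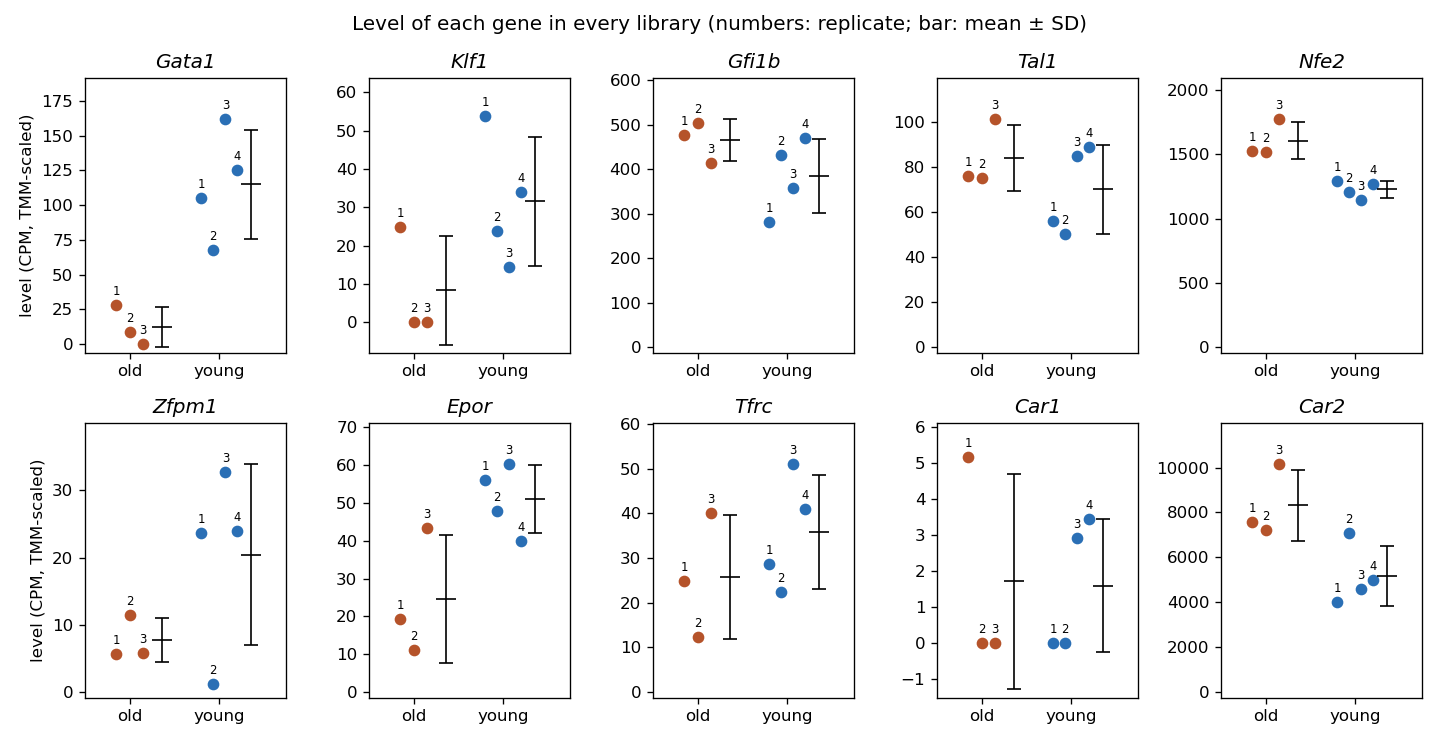
Level of each of the 10 genes in every library, in TMM-scaled CPM (vertical axes, each from 0 or just below it), with old on the left and young on the right of each panel. Points are libraries with their replicate number, and the bar beside them is the mean ± SD. The 3 old points of Gata1 lie between 0 and 28.5 CPM, below the 4 young points at 67.8 to 162 CPM, whereas for Car2 and Nfe2 the old points lie above the young ones.

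Gata1 read 28.5, 9.04 and 0 CPM in the 3 old libraries, against 105, 67.8, 162 and 125 CPM in the 4 young libraries. The groups did not overlap, and within the old group the libraries ran from none to a level still well below the lowest young library. The third old library held 0 Gata1 counts among its reads, which allows a level of up to 0.115 CPM (3 counts, counting error only), while young libraries held 1484 to 4488 Gata1 counts each. The mean was 12.5 ± 14.6 CPM in old cells and 115 ± 39.4 CPM in young HSCs (SD, n = 3 and 4), 9.20 times higher in young. The fitted log2 fold change was -3.20 ± 1.35 (SE), with an unadjusted p of 0.0412 and an adjusted p of 0.499 in edgeR's test. Gata1 kept its direction in all 18 settings tried and passed the threshold in 0 of them. Its size rested on single libraries: the log2 fold change was -4.66 without old 1, -2.62 without old 3 and -5.98 with limma-voom, with adjusted p of 0.576, 0.429 and 0.276. DESeq2 gave it an adjusted p of 0.109, and without young 1 and young 2 its log2 fold change was -3.52 in edgeR, with an adjusted p of 0.408.

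Klf1 encodes a zinc-finger activator of globin and other red cell genes and depends on GATA1. It read 24.9, 0.0619 and 0 CPM in old HSCs, against 54.0, 23.8, 14.5 and 34.0 CPM in young HSCs. Among the old libraries the reads lay almost entirely in the first, the one that also had the most Gata1, and that library alone made the groups overlap. Klf1 averaged 8.30 ± 14.3 CPM in old cells and 31.6 ± 16.9 CPM in young HSCs (SD, n = 3 and 4), with a log2 fold change of -1.93 ± 1.90 (SE) and an adjusted p of 0.915 (edgeR). Without the first old library the log2 fold change of Klf1 was -9.73 and its edgeR adjusted p 0.229, a fitted value that rests on 2 near-empty libraries and is no bound.

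Zfpm1, whose product FOG1 binds GATA1 and GATA2, was a low transcript in every library. It read 5.74, 11.5 and 5.88 CPM in old HSCs, against 23.7, 1.23, 32.7 and 23.9 CPM in young HSCs. Of the young libraries, 3 lay above every old library and the second young library lay below all of them. Zfpm1 had a log2 fold change of -1.41 ± 1.15 (SE) and an adjusted p of 0.880 in edgeR. Without young 1 and young 2 the Zfpm1 groups no longer overlapped, at a log2 fold change of -1.88 and an edgeR adjusted p of 0.394.

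Tal1, the helix-loop-helix partner of GATA1 and of GATA2, did not share the Gata1 pattern in these values. It read 76.3, 75.5 and 101 CPM in old HSCs, against 56.3, 50.3, 85.0 and 89.1 CPM in young HSCs, and the groups overlapped. Its log2 fold change was 0.27 ± 0.34 (SE, edgeR adjusted p = 0.946), and -0.05 without young 1 and young 2. Gfi1b encodes a repressor that red cells and megakaryocytes need and that also acts in HSCs. It read 478, 504 and 413 CPM in old HSCs, against 281, 431, 357 and 470.0 CPM in young HSCs. The ranges overlapped, with a log2 fold change of 0.27 ± 0.22 (SE, edgeR adjusted p = 0.881).

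Nfe2 encodes the haematopoietic subunit of the NF-E2 factor, which megakaryocytes need in order to release platelets. Nfe2 read 1529.7, 1518 and 1772 CPM in old HSCs, against 1294, 1206, 1143 and 1270.3 CPM in young HSCs. Every old library lay above every young library, and the spread within each group was small. Nfe2 averaged 1607 ± 143 CPM in old cells and 1228 ± 68.1 CPM in young HSCs (SD, n = 3 and 4), 1.31 times higher in old. The log2 fold change was 0.39 ± 0.17 (SE), with an unadjusted p of 0.0492 and an adjusted p of 0.545 in edgeR, and DESeq2 gave an adjusted p of 0.0883.

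**Figure D2:**
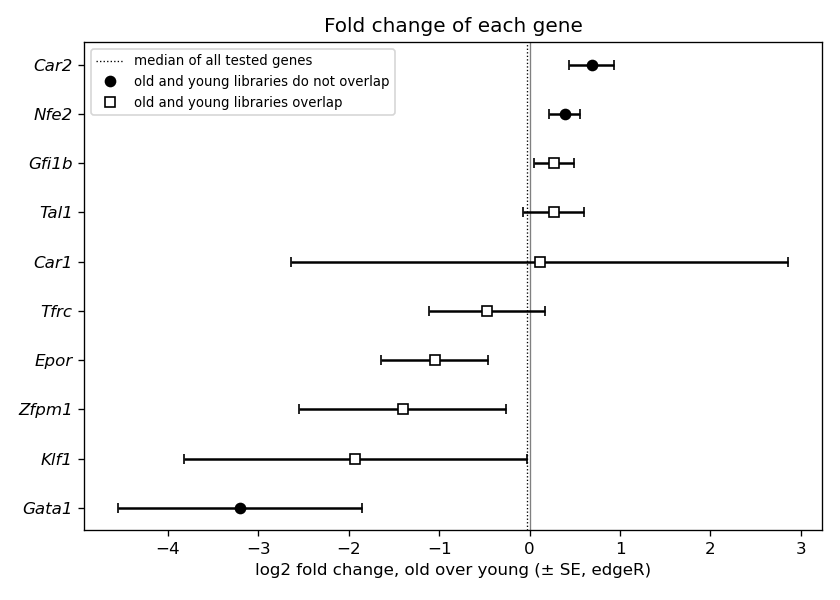
Log2 fold change (old over young, horizontal axis) of each of the 10 genes with its SE from the edgeR fit, ordered by size. Filled circles mark genes whose old and young libraries do not overlap, and the dotted line is the median of all tested genes at -0.03. Car2 and Nfe2 lie to the right with short bars, Gata1 lies at -3.20, and the bars of Gata1, Klf1, Zfpm1 and Car1 are wide.

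Among the receptors, Epor encodes the erythropoietin receptor, through which erythropoietin keeps red cell progenitors alive. Epor read 19.3, 11.1 and 43.4 CPM in old HSCs, against 55.9, 47.8, 60.1 and 40.0 CPM in young HSCs. The groups met only where the third old library exceeded young 4. Epor averaged 24.6 ± 16.8 CPM in old cells and 51.0 ± 8.94 CPM in young HSCs (SD, n = 3 and 4), 2.07 times higher in young, with a log2 fold change of -1.05 ± 0.59 (SE) and an edgeR adjusted p of 0.687. With library size alone as the scaling, the Epor groups no longer overlapped. Tfrc encodes the transferrin receptor, which brings iron into cells and is abundant on dividing and haemoglobin-making cells. Tfrc read 24.9, 12.4 and 40.0 CPM in old HSCs, against 28.6, 22.4, 50.9 and 41.0 CPM in young HSCs. The groups overlapped, and its log2 fold change was -0.47 ± 0.64 (SE, edgeR adjusted p = 0.951). Without young 1 and young 2 the Tfrc groups no longer overlapped, at a log2 fold change of -0.84 and an edgeR adjusted p of 0.651.

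Car2 encodes carbonic anhydrase II, a cytosolic enzyme of red cells, osteoclasts and other cells that interconverts carbon dioxide and bicarbonate. It was among the most abundant transcripts of these cells: by raw counts it ranked 2, 1 and 1 among all genes in the 3 old libraries, and 1 in each of the 4 young libraries. Car2 took 0.712%, 0.719% and 0.964% of all counts in old HSCs, against 0.412%, 0.675%, 0.490% and 0.527% in young HSCs. After TMM scaling Car2 read 7583, 7216 and 10140.2 CPM in old HSCs, against 4006, 7089, 4583 and 4981 CPM in young HSCs. The groups did not overlap, although the second young library came close to the lowest old one. The mean of Car2 was 8313 ± 1593 CPM in old cells and 5165 ± 1343 CPM in young HSCs (SD, n = 3 and 4), 1.61 times higher in old, with a log2 fold change of 0.69 ± 0.25 (SE). Its unadjusted p was 0.0205 and its adjusted p 0.371 in edgeR, whereas DESeq2 gave a log2 fold change of 0.67 and an adjusted p of 0.0390. Across edgeR fits that left out 1 library each, the Car2 log2 fold change ran from 0.52 to 0.88 and the adjusted p from 0.127 to 0.748.

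**Figure D3:**
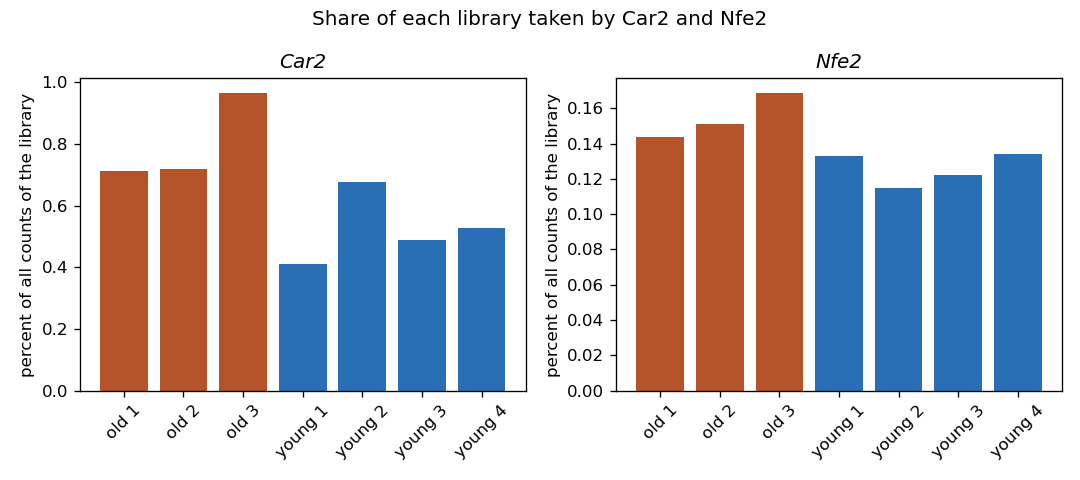
Percent of all counts of each library (vertical axes from 0, no scaling factor) assigned to Car2 and to Nfe2, with the 3 old libraries left of the 4 young ones. The lowest old bar of Car2 stands at 0.712% and the highest young bar at 0.675%, and for Nfe2 the old bars stand at 0.144% to 0.169% and the young bars at 0.115% to 0.134%.

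Car1 encodes carbonic anhydrase I, an abundant protein of mature red cells, and was close to undetected. It read 5.17, 0 and 0 CPM in old HSCs, against 0, 0, 2.93 and 3.45 CPM in young HSCs. The reads of the old group thus came from the first library alone, and no direction can be read from its log2 fold change of 0.11 ± 2.75 (SE, edgeR adjusted p = 0.996).

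The order of the 10 genes by level was set per length, as TPM, which divides each count by the gene's length, with exon lengths of a later annotation. In both groups Car2 stood first, at 9299 ± 1948 TPM in old and 6452 ± 1033 TPM in young HSCs, followed by Nfe2 at 1412 ± 167 TPM in old and 1227 ± 141 TPM in young HSCs. Gfi1b came next, at 510.0 ± 64.4 TPM in old and 478 ± 107 TPM in young HSCs (SD, n = 3 and 4 throughout). The gaps between these 3 genes exceeded their spread in either group. Gata1 was number 6 in old HSCs at 12.6 ± 14.1 TPM, and number 4 in young HSCs at 141 ± 61.6 TPM. Between Gfi1b and Gata1 in old HSCs stood Tal1 at 39.4 ± 7.76 TPM and Epor at 27.9 ± 19.5 TPM, and in young HSCs Epor followed Gata1 at 66.2 ± 16.4 TPM. Below these, Klf1 averaged 10.1 ± 17.4 TPM in old and 46.7 ± 25.5 TPM in young HSCs, Tfrc 9.85 ± 5.38 TPM in old and 16.1 ± 7.24 TPM in young HSCs, and Zfpm1 4.59 ± 2.19 TPM in old and 14.4 ± 9.95 TPM in young HSCs. Car1 was last, at 2.57 ± 4.46 TPM in old and 3.13 ± 3.62 TPM in young HSCs. In old HSCs the ranges of mean ± SD overlapped between neighbours among Tal1, Epor, Gata1, Klf1, Tfrc, Zfpm1 and Car1, so their order there is not settled. In young HSCs these ranges also overlapped for Gata1 and Epor, and for Epor, Klf1 and Tal1 (38.0 ± 13.9 TPM). The young range of Zfpm1 overlapped those of Klf1, Tal1, Tfrc and Car1, and that of Klf1 also reached Tfrc.

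Gata1 stood apart from the other regulators except Klf1 in how it varied between libraries. The genes nearest to it in pattern, by the root mean square distance of log2(CPM + 1) centred on each gene's mean over the 7 libraries among 8282 genes, were Parvg at 0.569, Rnase6 at 0.728, Ncaph at 0.738, Hmmr at 0.753 and Dnmt1 at 0.769. Parvg encodes an actin-linked focal adhesion protein of blood cells, Ncaph a condensin subunit, Hmmr a spindle-associated protein and Dnmt1 the maintenance DNA methyltransferase. These 5 were picked for their nearness to Gata1 over the same 7 libraries, so the features they share with it follow from that choice. Each had old libraries below all young libraries, and each was at or near 0 in the third old library. Dnmt1, for example, read 18.0, 22.9 and 0.0384 CPM in old HSCs, against 93.8, 34.1, 119 and 50.1 CPM in young HSCs. Of the other 9 genes of the set, Klf1 was nearest to Gata1 at a distance of 1.25, and the rest lay at 2.20 (Car1) to 2.82 (Car2). These distances describe 7 libraries that share their group means and no test was made of them.

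**Figure D4:**
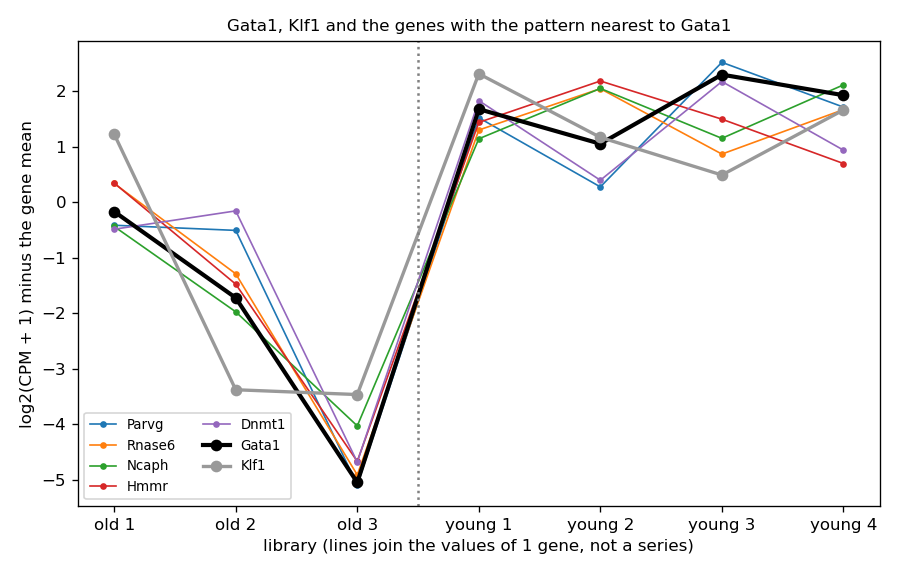
Log2(CPM + 1) minus the gene's mean over the 7 libraries (vertical axis) for Gata1 (black), Klf1 (grey) and the 5 genes with the pattern nearest to Gata1 (colours), by library with old on the left. Lines join the values of 1 gene and do not mark a series. Gata1 and the 5 coloured genes are lowest in the third old library, where Gata1 had 0 CPM, whereas Klf1 is as low in the second old library, at 0.0619 CPM.

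The partners of GATA1 and TAL1 were measured in full, with 25 of 25 listed genes tested and 0 called in either direction by edgeR. Their log2 fold changes were positive for 10 and negative for 15, with a median of -0.17. Lyl1, the close relative of Tal1, had the smallest p of the list and read 129, 148 and 171 CPM in old HSCs, against 77.8, 93.6, 80.7 and 74.4 CPM in young HSCs, without overlap (log2 fold change 0.87 ± 0.24 SE, edgeR adjusted p = 0.219). Ssbp2, which stabilises the LDB1 complex, read 528 to 563 CPM in old cells and 285 to 419 CPM in young HSCs (fitted log2 fold change 0.69, edgeR adjusted p = 0.231). Myb, a factor of proliferating progenitors, read 212 to 310.1 CPM in old cells and 367 to 434 CPM in young HSCs, also without overlap (log2 fold change -0.64, edgeR adjusted p = 0.301). Gata2 and Lmo2 are named after their values were seen, as the best-known partners. Gata2 overlapped, at 50.7, 139 and 89.9 CPM in old HSCs, against 125, 25.6, 132 and 136 CPM in young HSCs (edgeR adjusted p = 0.985). Lmo2, the bridging subunit of the complex, read 2352, 1852 and 2351 CPM in old HSCs, against 1567, 1222, 1410.4 and 1653 CPM in young HSCs, without overlap and at an edgeR adjusted p of 0.333. Among the 25 partners DESeq2 called 2 higher and 1 lower, against 1.9% and 1.91% of the genes to which it gave an adjusted p.

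Of 35 listed genes of the red cell lineage 33 were in the table, 13 had no count in any library and 14 were tested, of which edgeR called 0. The 6 positive and 8 negative log2 fold changes had a median of -0.10. The lowest p in the list belonged to Mt2, a metallothionein, which averaged 25.8 ± 10.6 CPM in old cells and 0.506 ± 0.474 CPM in young cells (SD, n = 3 and 4; a log2 fold change of 5.66, edgeR adjusted p = 0.223). Blvrb, a biliverdin and flavin reductase abundant in red cells, read 161, 93.0 and 101 CPM in old HSCs, against 27.1, 66.8, 27.9 and 68.1 CPM in young HSCs (fitted log2 fold change 1.32, edgeR adjusted p = 0.340). Both had old libraries above all young libraries, while Rhag, a membrane protein of the Rh complex, repeated the split within the old group seen for Klf1 and Car1. Rhag read 10.6, 0 and 0.0768 CPM in old HSCs, against 25.0, 0, 13.2 and 14.9 CPM in young HSCs (edgeR adjusted p = 0.946). The 16 tested genes of haem synthesis were evenly split, with 8 positive, 8 negative, 0 called by edgeR and a median of 0.01. Of the haem genes with the smallest p, Abcb6, a porphyrin transporter, read 0.189, 0 and 2.34 CPM in old HSCs, against 37.0, 0, 24.6 and 14.4 CPM in young HSCs (edgeR adjusted p = 0.677).

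Downstream of Epor, 21 of 23 listed signalling genes were tested. Of these edgeR called 1 higher and 0 lower in old HSCs, against 0.235% and 0.0174% of all tested genes. The called gene was Pik3r1, the p85 regulatory subunit of phosphoinositide 3-kinase. It rose to 277, 336 and 374 CPM in old HSCs, against 133, 107, 133 and 105 CPM in young HSCs, with a log2 fold change of 1.46 ± 0.22 (SE) and an adjusted p of 0.0457. The call of Pik3r1 was lost in 7 of 7 fits that left out 1 library, with adjusted p from 0.0536 to 0.253, each still with a log2 fold change of at least 1.36. It was also lost without young 1 and young 2 together (edgeR adjusted p = 0.135). The 21 genes had 10 positive and 11 negative log2 fold changes and a median of -0.19, which was -0.58 without old 2, -0.45 without young 1 and young 2, 0.05 without young 3 and 0.06 without young 4. Ptpn6, a phosphatase that dampens the receptor's signal, read 165, 254 and 267 CPM in old HSCs, against 282, 247, 461 and 398 CPM in young HSCs (edgeR adjusted p = 0.597).

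Of 18 genes of iron uptake and storage 15 were tested and edgeR called 0, with 6 positive and 9 negative log2 fold changes and a median of -0.24. That median was -0.52 without old 1, 0.03 without young 1 and 0.28 over the members of at least 50 CPM, so no direction can be read from it. Fth1, the ferritin heavy chain that stores iron, read 2963, 1970.4 and 2295 CPM in old HSCs, against 1035, 1569, 970.3 and 1415 CPM in young HSCs, without overlap (log2 fold change 0.95, edgeR adjusted p = 0.190). Ferritin genes have processed pseudogenes, so reads of Fth1 may have been lost or split in counting. Tfr2, the second transferrin receptor, which also associates with the erythropoietin receptor, read 53.7, 42.3 and 26.9 CPM in old HSCs, against 142, 40.9, 138 and 102 CPM in young HSCs (fitted log2 fold change -1.37 ± 0.48 SE, edgeR adjusted p = 0.360). Steap3, the ferrireductase that works with the transferrin receptor, read 0.113, 0 and 0 CPM in old HSCs, against 25.4, 0, 14.1 and 25.4 CPM in young HSCs (edgeR adjusted p = 0.327). For Tfr2, Steap3, Abcb6 and Rhag, as for Zfpm1, the second young library was the exception among the young, within or below the old range.

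On the megakaryocyte side, 27 of 31 listed genes were tested. Of these edgeR called 1 higher and 0 lower, against 0.235% and 0.0174% of all tested genes. There were 13 positive and 14 negative log2 fold changes, with a median of -0.04. In 8 of the 27 every old library lay above every young library, against 7.55% of all tested genes. In 1 of the 27 every old library lay below, against 5.18%. The 31 genes summed to 4865 to 5045 CPM in old cells and 2832 to 3439 CPM in young HSCs. The called gene was Sdpr, which encodes a protein that shapes caveolae. It rose to 380.2, 303 and 342 CPM in old HSCs, against 78.1, 83.8, 89.8 and 107 CPM in young HSCs, with a log2 fold change of 1.93 ± 0.22 (SE) and an adjusted p of 0.0105. The Sdpr call was lost without the first old library (adjusted p = 0.117), without the third (adjusted p = 0.0923) and without young 1 and young 2 together (adjusted p = 0.0707). Selp, the platelet adhesion receptor P-selectin, read 161, 792 and 405 CPM in old HSCs, against 116, 42.2, 43.4 and 50.6 CPM in young HSCs, without overlap (log2 fold change 2.84, edgeR adjusted p = 0.106). In the other direction Itga2b, the CD41 integrin chain and a GATA1 target named after its values were seen, read 4.95, 5.66 and 10.9 CPM in old HSCs, against 59.0, 9.41, 46.2 and 76.5 CPM in young HSCs (fitted log2 fold change -2.73 ± 0.85 SE, edgeR adjusted p = 0.290). Pf4, the platelet chemokine, overlapped widely, with a mean of 77.7 ± 81.2 CPM in old cells and 140.4 ± 95.3 CPM in young cells (SD, n = 3 and 4; edgeR adjusted p = 0.902).

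Among relatives of Car1 and Car2, 6 of 14 listed genes were tested and edgeR called 0, with 3 positive and 3 negative values and a median of 0.09, which was 0.72 without old 2, 1.08 without young 4 and 1.66 with limma-voom. Car13, another cytosolic carbonic anhydrase, read 46.7, 22.3 and 16.2 CPM in old HSCs, against 0.0438, 0, 3.54 and 12.4 CPM in young HSCs, which did not overlap (log2 fold change 2.83 ± 1.82 SE, edgeR adjusted p = 0.777). Of 14 regulators of other fates 6 were tested and 0 were called by edgeR, with 4 positive, 2 negative and a median of 1.04, which was 0.48 without old 1, 0.57 without old 2, 0.23 without young 1 and young 2 and 0.005 over the members of at least 50 CPM. Cebpb, a factor of myeloid cells, read 161 to 289 CPM in old cells and 71.8 to 99.5 CPM in young HSCs (fitted log2 fold change 1.42, edgeR adjusted p = 0.102). Id2, an inhibitor of helix-loop-helix factors, read 62.7 to 129 CPM in old cells and 0.307 to 13.7 CPM in young HSCs (fitted log2 fold change 3.92, edgeR adjusted p = 0.181). Of 17 paralogues of the 10 genes, such as Gata3 and Klf2, 10 were tested and edgeR called 0, with 6 positive, 4 negative and a median of 0.40.

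**Figure D5:**
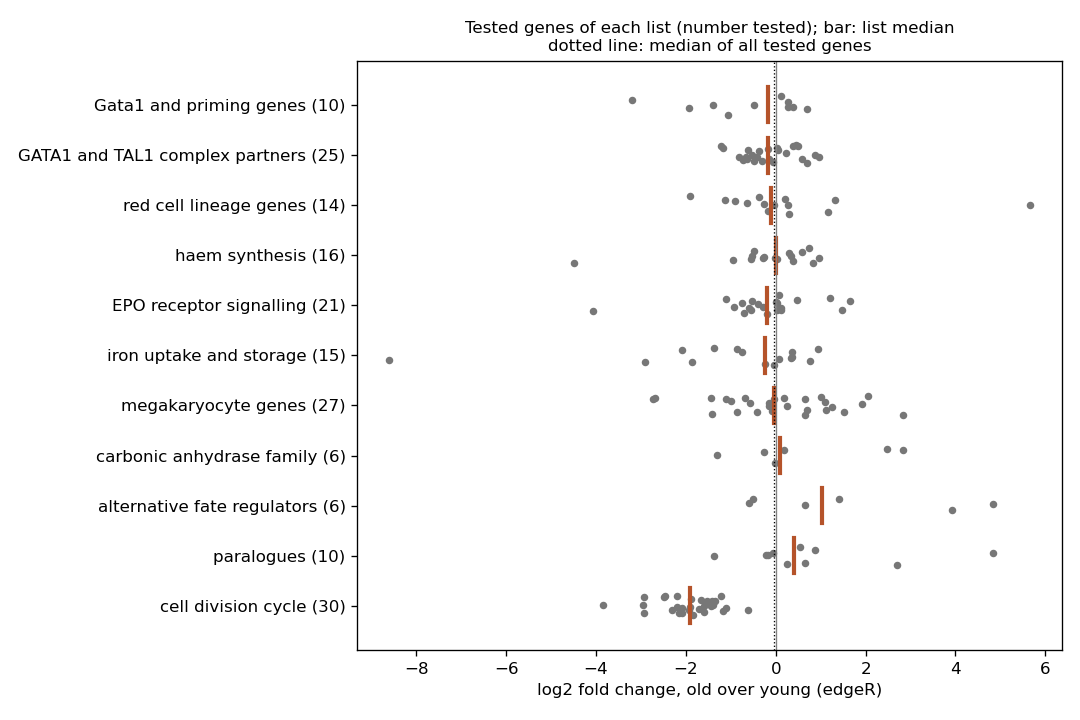
Log2 fold change (old over young, horizontal axis) of every tested gene of the 10-gene set and of 10 related gene lists, with the number tested in brackets, list medians as bars and the median of all tested genes as a dotted line at -0.03. The lists around Gata1 are spread on both sides of 0, whereas all 30 genes of the cell division cycle lie to the left, with a median of -1.90.

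Genes of the cell division cycle moved with the group, although edgeR called 0 of 30: all 30 log2 fold changes were negative, the median was -1.90, and in 23 of 30 every old library lay below every young library, against 5.18% of all tested genes. DESeq2 called 17 of the 30 lower, against 1.91% of the genes it tested. Their summed level was 1479 to 2673 CPM in old cells and 5607 to 6586 CPM in young HSCs, and Cdk1, the mitotic kinase, read 31.8 to 73.0 CPM in old cells and 146 to 285 CPM in young HSCs. The part of cycling cells in the values of Gata1 and its relatives was not tested. Markers listed for committed progenitors also differed. Cd34, Cd48, Flt3, Cd33, Fcgr2b and Il7r summed to 85.3 to 135 CPM in old cells and 266 to 429 CPM in young HSCs. Most of this sum was Cd34, on which the stated gate does not select, and Cd33 and Il7r were at 0 throughout. Cd48, whose protein the gate excludes, was at 0 in 3 of 3 old libraries, against 6.88, 1.87, 24.5 and 16.6 CPM in the young ones. Cd34 read 106, 85.2 and 135 CPM in old HSCs, against 275, 398, 325 and 234 CPM in young HSCs (edgeR adjusted p = 0.0819). Their part in the lower Gata1 values was likewise not tested.

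Defining markers of other cells were measured beside these values. Of 11 markers of red cells and erythroblasts 10 were in the table, and they summed to 0 to 10.6 CPM in old cells and 4.66 to 31.7 CPM in young HSCs. Hba-a1, Hba-a2, Hbb-b1, Hbb-b2 and Slc4a1 were at 0 in all 7 libraries, although reads of the near-identical globin copies may have been discarded in counting, and Alas2 was at 0 in old HSCs. Megakaryocyte and platelet markers summed to 166 to 312 CPM in old cells and 259 to 478 CPM in young HSCs, with Gp6 at 0 in all libraries. Mast cell, basophil and eosinophil markers, of lineages that also need GATA1, summed to 20.2 to 66.8 CPM in old cells and 0 to 10.9 CPM in young HSCs, and 7 of 12 were at 0 throughout, Ms4a2 and Mcpt8 among them. The old sum was Cpa3 and Fcer1a alone, while Epx, Prg2 and Hdc were at 0 in old HSCs and reached at most 2.53 CPM in a young library. Markers of macrophages and osteoclasts, the latter users of carbonic anhydrase II, summed to 12.4 to 30.6 CPM in old cells. In young HSCs they summed to 49.8 to 110 CPM. Of these markers Ctsk, Calcr and Ocstamp were at 0 in all libraries. Cd68 read 7.15 to 20.0 CPM in old cells and 16.2 to 64.3 CPM in young HSCs. The part of such cells in the Car2 values was not tested. Granulocyte and monocyte markers summed to 1433 to 2215 CPM in old cells and 865 to 1458 CPM in young HSCs, mostly Lyz2 and Prtn3. Prtn3, a serine protease gene of early granulocytic cells, rose to 772, 546 and 617 CPM in old HSCs, against 206, 148, 98.4 and 152 CPM in young HSCs (fitted log2 fold change 2.10, edgeR adjusted p = 0.0242), a call that held in 2 of 7 fits without 1 library. The Prtn3 call was lost without young 1 and young 2 together (edgeR adjusted p = 0.0660). Lymphocyte markers summed to 178 to 279 CPM in old cells and 218 to 521 CPM in young HSCs, and markers of endothelium and stroma to 41.7 to 130 CPM in old cells and 49.5 to 139 CPM in young HSCs. Of the transcripts whose proteins the gate requires, Kit read 136 to 332 CPM in old cells and 170.4 to 546 CPM in young HSCs. Ly6a (Sca-1) read 270.4 to 991 CPM in old cells and 101 to 234 CPM in young HSCs. Slamf1 (CD150) read 102 to 278 CPM in old cells and 60.6 to 99.2 CPM in young HSCs. Among 10 markers listed for the sorted cells edgeR called 1 higher, Procr, and 0 lower, against 0.235% and 0.0174% of all tested genes. Procr read 384, 290 and 323 CPM in old HSCs, against 40.2, 42.4, 50.3 and 66.1 CPM in young HSCs. Its log2 fold change was 2.74 (edgeR adjusted p = 0.00643), and the call held in 5 of 7 fits without 1 library. Without young 1 and young 2 together the Procr call was lost (edgeR adjusted p = 0.0523).

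Library totals were 27369677 to 32401925 counts in old and 22203806 to 27146186 counts in young HSCs, so that 3 counts correspond to 0.0929 to 0.137 CPM. The common biological coefficient of variation was 106%, and every pair of libraries differed by more than sampling noise (lowest chi-square per degree of freedom 180).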

How the data were processed

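Polyadenylated RNA of sorted bone marrow cells was turned into cDNA with the Smart-seq+ method and sequenced after Nextera XT library preparation, per the labels' protocols. This preparation does not mark strand, so overlapping genes cannot be told apart. Reads were handled with featureCounts, STAR, Trimmomatic and FastQC and genome build mm9, per the submitters' processing notes, with settings and gene annotation not given in the sources used here. Per the deposited table, the authors gave 1 set of unscaled read counts, with a row for each gene symbol and a column for each library, all whole numbers. No molecular identifiers are stated, so counts include amplification copies, and the floor of 3 counts covers counting error only.

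The software was DESeq2 1.42.0, edgeR 4.0.16 and limma 3.58.1 under R 4.3.3. Of 24015 genes 14732 had a count, and filterByExpr (minimum count 10, minimum total 15) kept 11506. Old was compared with young by edgeR's quasi-likelihood F test, 2-sided, with TMM scaling and group as the only term, and p-values were adjusted over all kept genes at a threshold of 0.05. The SE of a log2 fold change was taken as its size over the square root of the F statistic. Levels are TMM-scaled CPM, and TPM uses exon lengths of GENCODE vM21, whose build is GRCm38 and which matched 22709 symbols, so no gene positions are taken from it. The members, the gene lists and their order of interest were chosen with earlier results of these data known, and lists are described by counts and medians alone. The genes named are the 10 members, of each list at most the 3 tested genes of lowest p, and the 5 genes nearest to Gata1 in pattern with a mean of at least 10 CPM. Genes named beyond this rule are identified as such, are defining markers at 0, or are the sort markers Kit and Slamf1. Other scalings, DESeq2, limma-voom, robust dispersions, other filters, thinning, a replicate block and leaving out libraries were tried as alternatives.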

Additional observations from a re-analysis of the deposited data

Results flagged for a closer look

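In 4 of 65 genes checked, 1 young library lay far from the other 3 young libraries (Dixon's test at the 95% level), where chance gives about 1 in 20. Ppox, which encodes an enzyme of haem synthesis, read 77.4 CPM in young 4 and 36.7 to 43.1 CPM in the others. Selp read 116 CPM in young 1 and 42.2 to 50.6 CPM in the others, still below the lowest old library. Fcer1a, a mast cell and basophil receptor gene, read 8.50 CPM in young 4 and 0 in the others. Kdr, an endothelial receptor gene, read 7.94 CPM in young 4 and 0 to 0.131 CPM in the others. None of the 10 members was among them. The old group of 3 libraries was not checked, so a single high old library, as for Klf1 and Car1, is not covered here.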

How the results depend on the processing

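The count of members called stayed at 0 higher and 0 lower in every setting except DESeq2, which called 1 higher (Car2, log2 fold change 0.67, adjusted p = 0.0390). In fits without 1 library each the counts ran from 0 to 0. Across the settings in which they were tested, Gata1, Klf1, Zfpm1, Epor and Tfrc kept a negative value and Gfi1b, Nfe2 and Car2 a positive one. Tal1 turned to -0.047 without young 1 and young 2. Car1, detected in 1 old and 2 young libraries, turned to -0.066 with library size alone, to -1.31 with limma-voom and to -0.89 without young 1 and young 2, and ran from -8.41 to 0.70 in fits without 1 library. The cause was not tested.

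The replicate numbers gave no visible pairing of the libraries: deviations of same-numbered old and young libraries correlated at 0.03, -0.07 and -0.01 over genes. With a common coefficient of variation of 106%, such correlations cannot exclude that the libraries were paired. A fit with the replicate number as a block (young 4 then has no old partner) called 0 of the 10 members and 0 genes in all, with a log2 fold change of -3.98 for Gata1 and an adjusted p of 0.851 (edgeR).

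Over all genes edgeR called 27 higher and 2 lower, DESeq2 215 and 216, limma-voom 49 and 1, edgeR with library size alone 15 and 1, edgeR on genes of at least 50 CPM 79 and 51, and fits without 1 library 2 to 16 higher and 0 to 2 lower. Of the cell division genes, 0 were called lower by edgeR, 8 with at least 50 CPM and 17 by DESeq2. In the other lists DESeq2 called 1 of 14 red cell genes higher, and of 15 iron genes 1 higher and 1 lower. Of 27 megakaryocyte genes it called 4 higher and 1 lower. It also called 2 of 6 regulators of other fates higher and 1 of 10 paralogues higher. Over all genes to which it gave an adjusted p, DESeq2 called 1.9% higher and 1.91% lower. In these lists edgeR called 1 gene higher on the megakaryocyte list and 0 on the rest, against 0.235% higher over all tested genes. List medians moved with single libraries too: those of the partners ran from -0.44 to -0.04, of red cell genes from -0.31 to -0.04, of haem genes from -0.03 to 0.04 and of megakaryocyte genes from -0.16 to 0.25 in fits without 1 library, and the megakaryocyte median was 0.60 over members of at least 50 CPM. The cell division median stayed between -2.21 and -1.55. The log2 fold changes of Gata1, Klf1, Zfpm1 and Car1 had wide SEs, of 1.35, 1.90, 1.15 and 2.75. With every library thinned to the smallest, these log2 fold changes were -3.21, -1.92, -1.46 and 0.17. The cause of the wide SEs was not tested.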
